A study of Mus musculus with 4 samples.

Results

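The collagen genes outside the hemidesmosome were taken as all mouse protein-coding genes with a symbol of the form Col, number, a, number, without Col17a1 and Col7a1. They were 42 of 21627 protein-coding genes. YAP binding at these genes was read from ChIP-seq (chromatin immunoprecipitation and sequencing) of mouse epidermis, given as 1 list of called peaks for Bmal1 WT and 1 for Bmal1 KO. BMAL1 activates transcription within the circadian clock. The cells were suspensions of epidermis from adult mice aged 18 to 25 weeks, collected at Zeitgeber time 4 (ZT4), 4 h after lights on. The WT group carries the genotype label Bmal1 WT and the KO group Bmal1 KO, and the treatment protocol writes the latter as Bmal1cKO. The cells in which Bmal1 was deleted, any Cre driver, and the animals or libraries that entered each pool are details not given in the sources used here. A peak was linked to a collagen gene when its summit, the highest point of the peak, lay inside the gene span or lay within 100 kb of it with no other protein-coding gene nearer. This linked 64 of 36576 WT peaks and 22 of 14879 KO peaks. With 1 pooled list per genotype there is no replicate error, no test was run, and intervals and errors below cover counting only.

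Collagens are matrix proteins whose chains wind into a long helix. Fibrillar collagens (types I, II, III, V, XI, XXIV and XXVII) build the banded fibrils of dermis, tendon and cartilage and in skin are made mainly by fibroblasts. Type IV chains form the sheet-like network of the basement membrane on which basal keratinocytes sit, and types XV and XVIII are proteoglycan collagens of the basement membrane zone. YAP is a co-activator that lacks a DNA-binding domain and reaches DNA mainly through TEAD factors, often at distal enhancers that also hold AP-1 factors.

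The labelled tissue was set against linked genes of marker lists, with the limit that a peak does not read expression. Of the basal keratinocyte genes 10 of 10, and of the differentiated keratinocyte genes 10 of 10, had a linked WT peak, against 53.2% of all protein-coding genes. Of the dermal fibroblast genes it was 5 of 12, near that share, and of the endothelial genes 1 of 6. Among the fibroblast genes, Thy1, Fbn1, Fap, Pi16 and Dpt had a linked WT peak, with 46 to 110 reads at the strongest of each. Pdgfra, Pdgfrb, Dcn, Lum, Mfap5, Twist2 and Prrx1 had none. The strongest Thy1 peak, with 110 reads, lay 60818 bp and the Dpt peak 25851 bp outside the span, and the others inside. The endothelial gene was Pecam1, with 9 WT peaks and 3 kept, the strongest inside the span with 87 WT and 40 KO reads. The part of chromatin from other cell types in the collagen peaks was not tested. Whether fewer cells were bound, each cell was bound less, or ChIP enrichment differed between the pools cannot be told apart in these bulk samples. YAP peaks also do not check the genotype labels.

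Few collagen start windows lay under a YAP peak. The RefSeq promoter table (GRCm38.p6, the build called mm10) held an entry for 33 of the 42 genes, in 36 start windows. Col1a1, Col2a1, Col4a3, Col5a2, Col9a3, Col12a1, Col14a1, Col22a1 and Col26a1 were without an entry. Of the 36 windows, taken as the 250 bases before the listed start, 3 (8.33%) were overlapped by a WT peak, against 33.7% of the windows of all protein-coding genes. They were those of Col4a5, Col16a1 and the downstream start of Col18a1. These 3 are printed below with the window of Col4a6, the divergent neighbour of Col4a5. The window of the upstream Col18a1 start, with a summit 1278 bp upstream of that start, is not printed. Capitals mark exact matches, on either strand, to the TEAD motif GGAATG, the AP-1 motif TGANTCA or the E-box CACGTG, the element bound by BMAL1 and CLOCK. The letters of GGAATG and TGANTCA can overlap, and no matches did so in the printed windows.
Col4a5, chrX:141475169-141475418, plus strand: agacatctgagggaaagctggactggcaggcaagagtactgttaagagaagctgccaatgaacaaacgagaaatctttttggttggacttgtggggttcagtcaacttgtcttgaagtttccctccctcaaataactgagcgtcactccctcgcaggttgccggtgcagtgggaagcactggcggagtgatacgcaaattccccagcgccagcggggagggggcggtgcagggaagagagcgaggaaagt
Col4a6, chrX:141474077-141474326, minus strand: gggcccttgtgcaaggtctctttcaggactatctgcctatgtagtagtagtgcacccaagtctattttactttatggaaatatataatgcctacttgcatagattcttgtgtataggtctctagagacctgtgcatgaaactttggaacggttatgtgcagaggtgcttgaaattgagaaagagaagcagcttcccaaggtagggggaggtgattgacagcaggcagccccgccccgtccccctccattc
Col16a1, chr4:130047590-130047839, plus strand: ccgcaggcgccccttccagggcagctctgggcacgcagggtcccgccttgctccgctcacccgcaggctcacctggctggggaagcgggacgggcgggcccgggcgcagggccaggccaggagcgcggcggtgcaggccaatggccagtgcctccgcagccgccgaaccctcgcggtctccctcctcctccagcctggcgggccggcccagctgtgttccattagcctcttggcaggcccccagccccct
Col18a1 downstream start, chr10:77113706-77113955, minus strand: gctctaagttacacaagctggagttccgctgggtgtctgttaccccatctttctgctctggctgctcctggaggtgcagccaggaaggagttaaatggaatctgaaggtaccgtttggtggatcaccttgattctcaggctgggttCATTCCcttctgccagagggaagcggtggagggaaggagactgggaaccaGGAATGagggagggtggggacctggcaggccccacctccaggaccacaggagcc

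All 250 bases of the Col4a5 and Col16a1 windows lay under a WT peak, and neither held a match to any of these motifs. The Col18a1 window held 2 TEAD matches, beginning 104 and 54 bases before the start, and its outermost 91 bases lay under a peak, so both matches lay outside the called interval. Over all collagen windows, the TEAD letters were found in 4 of 36 (11.1%), against 11.6% of 21044 windows of all protein-coding genes. The other windows with a TEAD match were those of Col3a1, Col20a1 and one start of Col6a2, all without a linked WT peak. The AP-1 letters were found in 1 collagen window, that of Col6a1, against 6.17% of all windows. The E-box was found in none, against 6.70% of all windows.

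Basement membrane collagens were all linked to YAP peaks in WT, and fibrillar collagens for fewer than all genes. A WT peak was linked to 8 of 8 basement membrane genes, to 5 of 11 fibrillar genes and to 13 of 23 genes of the other classes. Over all 42 genes the count was 26 (61.9%), against 53.2% of all protein-coding genes. In KO the counts were 6 of 8, 2 of 11 and 6 of 23, or 14 of 42 (33.3%), against 30.1% of all genes. The whole family was thus close to the background, and the classes lay on either side of it. Gene length differed between the classes, with a median span of 135.8 kb for basement membrane and 45.1 kb for fibrillar genes, against 17.3 kb for all genes. Among genes of at least 100 kb, 71.9% of all genes had a WT peak, as did 8 of 8 basement membrane and 3 of 5 fibrillar genes. Under 50 kb the share was 47.8% of all genes and 2 of 6 fibrillar genes. Inside the spans, basement membrane genes held 20 WT peaks, or 1.58 per 100 kb, and fibrillar genes 6, or 0.574 per 100 kb. The value for all protein-coding spans was 1.90 per 100 kb, so both classes as a whole were below it. Within the basement membrane genes, type IV held 1.34 per 100 kb and types XV and XVIII 2.73. The value for all spans was not matched for gene length.

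**Figure D1:**
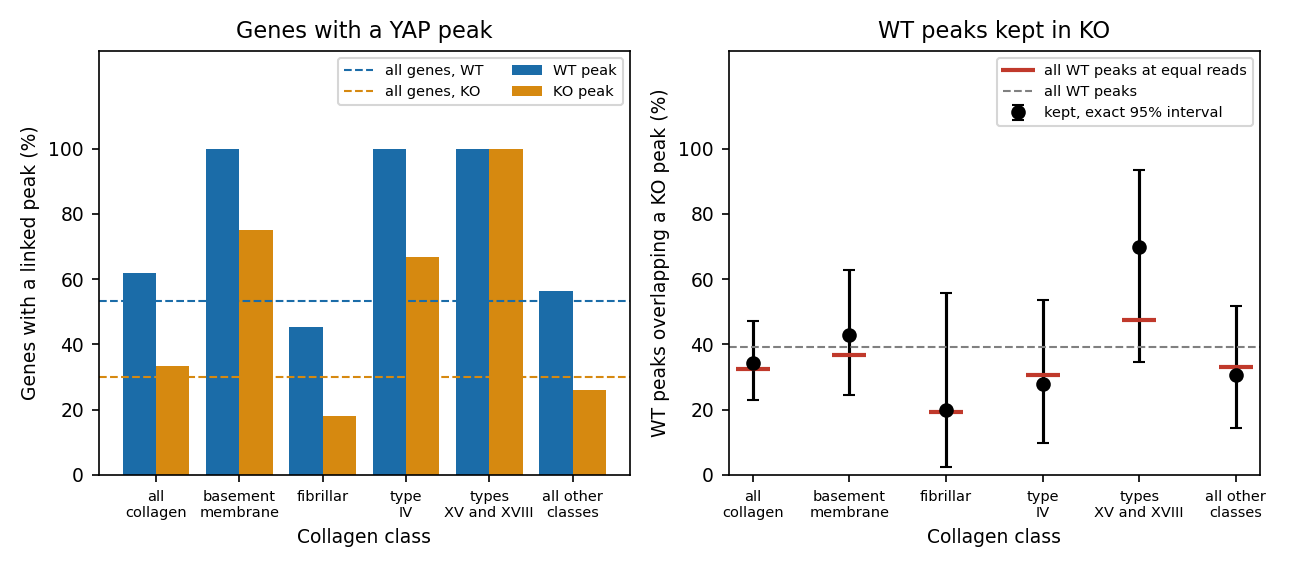
Genes with a linked YAP peak (left, bars, %) and WT peaks that overlapped a KO peak (right, points with exact 95% Clopper-Pearson intervals, %) by collagen class; dashed lines give all protein-coding genes or all WT peaks, and red ticks the kept share of all WT peaks with equal reads. Basement membrane genes all have a WT peak, and every kept share has the red tick inside its interval.

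The number of reads at each summit was recovered from the deposited fold and p, in units in which both lists have the same even background of 9.63 reads. Collagen peaks in WT had between 36 and 153 reads, with a median of 55.5, against 61 for all WT peaks. Of the 64 WT peaks, 22 shared 1 bp or more with a peak called in KO and are called kept (34.4%, 95% interval 23.0 to 47.3), against 39.1% of all WT peaks. The other 42 are called WT-only, which says that no KO peak was called there and gives no KO read number. All 22 KO peaks overlapped a WT peak, against 99.0% of all KO peaks, so no collagen peak was KO-only. Since weak WT peaks are seldom kept anywhere, each share was set beside the share kept among all WT peaks of the same reads, within 2 reads. This gave 32.4% for the collagen peaks, near their own 34.4%.

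Basement membrane genes kept 12 of 28 WT peaks (42.9%, 24.5 to 62.8) and fibrillar genes 2 of 10 (20%, 2.52 to 55.6). The intervals overlap widely, and at equal reads all WT peaks kept 36.6% and 19.2%, so a gap in the same direction was present among all WT peaks of these reads. The class difference also rested on the gene with the most peaks in each class. Without Col18a1, basement membrane genes kept 6 of 20 peaks (30.0%), and without Col5a1, fibrillar genes kept 2 of 6 (33.3%), so with both left out the order of the classes turned. Type IV genes alone kept 5 of 18 (27.8%). With a −log10 q of at least 10 asked of peaks in both lists, basement membrane genes kept 4 of 18 (22.2%) and fibrillar genes 1 of 5 (20%). Of all WT peaks at this limit 38.0% were kept, a share that was not matched for reads.

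**Figure D2:**
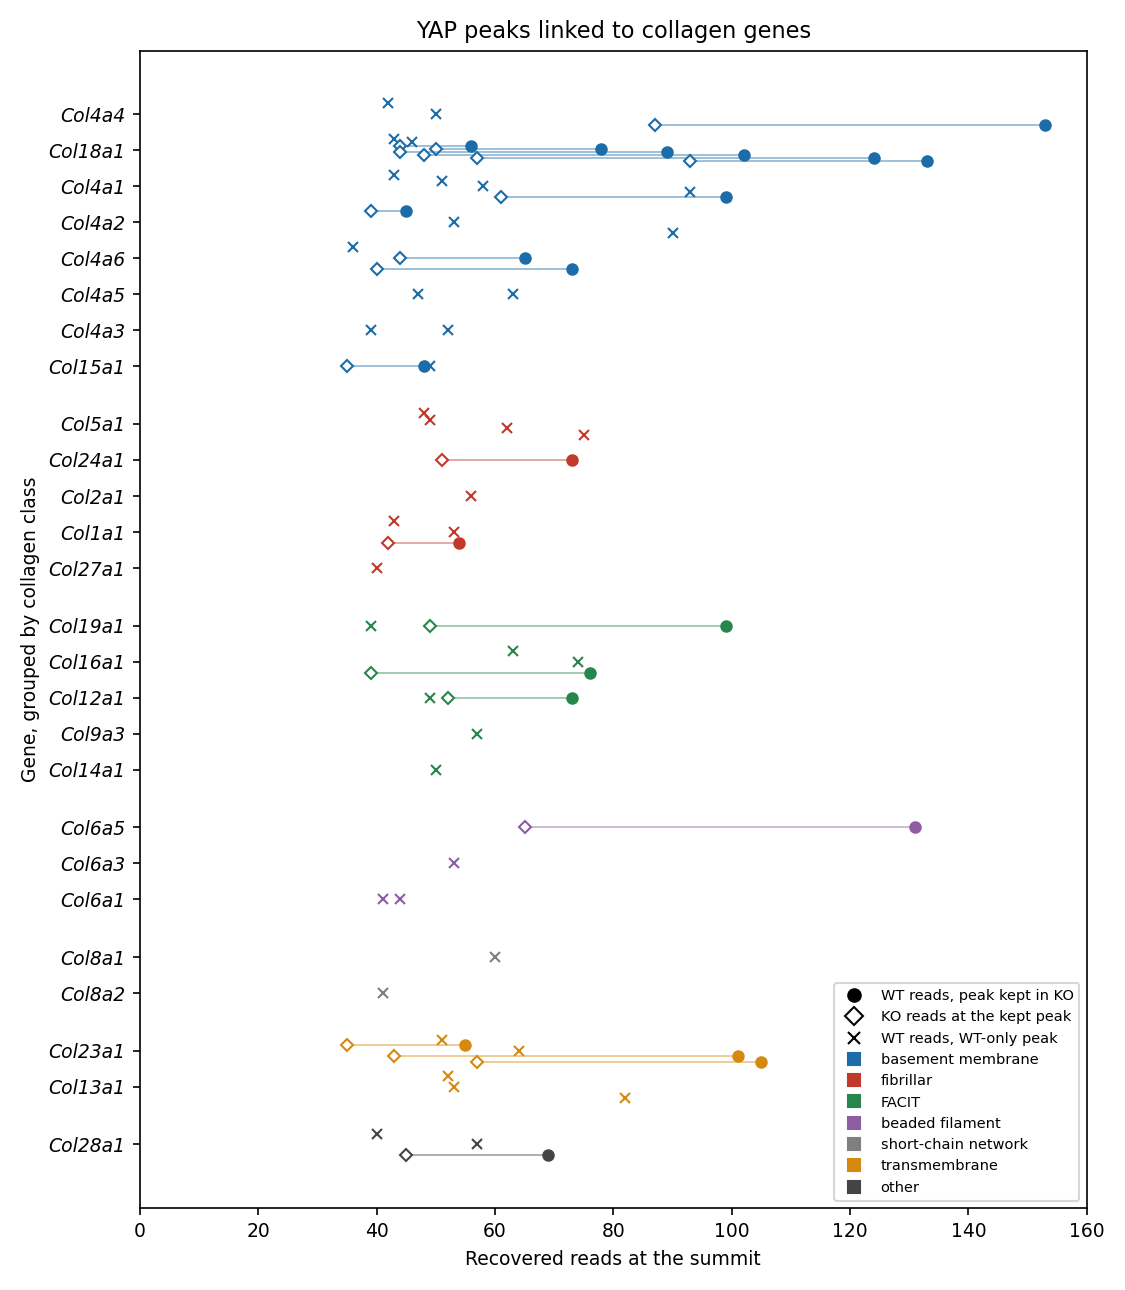
Recovered reads at the summit (x axis) of every WT peak linked to a collagen gene (y axis, grouped by class); filled circles are WT reads of kept peaks, joined to the KO reads at the same site (diamonds), and crosses are WT-only peaks. Every diamond lies left of its circle, and no fibrillar peak exceeds 75 reads while the basement membrane peaks reach 153.

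Col18a1, which encodes the chain of type XVIII collagen, source of the fragment endostatin, was the collagen gene with the most peaks: 8 in WT and 6 in KO. The WT summits spread over 99.2 kb, from upstream of the gene to past its downstream start. The strongest, chr10:77142135-77142832, lay inside the span 23993 bp downstream of the upstream start, with 133 WT and 93 KO reads. The second, chr10:77118974-77119737, lay at -5707 bp from the downstream start, a negative distance being upstream, and had 124 and 57 reads. A peak 1758 bp downstream of that start had 78 and 50 reads. The peak that reached into the printed window, chr10:77113865-77114244, was WT-only with 43 reads. Near the upstream start, a peak 1278 bp outside the span had 56 and 44 reads. Farther upstream, peaks at 35619 and 44662 bp had 102 and 48, and 89 and 44 reads, and one at 27236 bp was WT-only with 46 reads. The 6 peaks with the most WT reads were the kept ones. All WT peaks of these reads would give 4.63 kept of 8, and the interval of the 75% kept, 34.9 to 96.8, includes that share of 57.9%.

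Among the kept Col18a1 peaks, the log2 ratio of KO to WT reads above background was -0.57 (counting SE 0.21) at the strongest peak, -0.43 (0.36) near the upstream start and -0.76 (0.31) past the downstream start. At the peak with 124 WT reads it was -1.27 (0.27), and at the far upstream peaks -1.27 (0.30) and -1.21 (0.33). With counting SEs of this size and no replicate, no order among these sites was drawn.

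Col15a1, which encodes the related type XV chain, had 2 WT peaks, both weak and inside the span. The one 2253 bp from the end of the span had 48 WT and 35 KO reads, and the other, with 49 reads, was WT-only. Of all WT peaks under 50 reads, 3.10% were kept.

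The type IV genes lie as 3 pairs, each pair adjacent and transcribed in opposite directions, and peaks lay within the genes or beyond their far ends more than at the shared start. The spans of Col4a1 and Col4a2, which encode the most widespread type IV chains, overlap by 85 bp on chromosome 8. No peak lay in this shared promoter, and the nearest summit was 5196 bp inside Col4a1. Col4a1 had 5 WT peaks and 1 kept. Beyond its 3′ end, 3 summits lay at 21843, 23417 and 25006 bp outside the span. They had 93, 99 and 58 WT reads, and only the middle one, chr8:11174627-11175305, was kept, with 61 KO reads (log2 -0.80, counting SE 0.27). Its neighbour with nearly as many reads, chr8:11176298-11176836, was not called in KO. The peaks inside Col4a1 had 43 and 51 reads and were WT-only.

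Col4a2 had 3 WT peaks, all inside the span, with 45, 53 and 90 reads. Here the weakest was the kept one, with 39 KO reads (log2 -0.27, counting SE 0.41), and chr8:11392752-11393709 with 90 reads was WT-only. The kept call at the weak peak was lost when summits had to lie within 200 bp of each other, since they lay 225 bp apart. Peaks of at least 80 reads were kept in 91.1% of all WT peaks and in 10 of 13 collagen peaks. The 3 exceptions were these peaks at Col4a1 and Col4a2, with 93 and 90 reads, and one at Col13a1. They were among 931 such WT-only peaks in all.

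Col4a3 and Col4a4 encode chains of the specialised network best known from kidney and their spans overlap by 114 bp on chromosome 1. Col4a4 held the strongest collagen peak of all, chr1:82527834-82528524, deep inside the span, with 153 WT and 87 KO reads (log2 -0.89, counting SE 0.21). Of all WT peaks, 95.8% had fewer reads. Weaker peaks with 50 and 42 reads flanked it within 4090 bp and were WT-only. Col4a3 had 2 WT peaks with 39 and 52 reads, both WT-only.

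Col4a5 and Col4a6 face each other on chromosome X with 1274 bp between their spans, and this was the type IV pair with peaks at its starts. The summit at Col4a5 lay 181 bp before the start whose window is printed above, with 47 WT reads, and was WT-only. The summit at Col4a6 lay 1166 bp downstream of its start, with 65 WT and 44 KO reads (log2 -0.69, counting SE 0.35). A second kept Col4a6 peak, chrX:141439287-141439922, had 73 and 40 reads (log2 -1.06, counting SE 0.36), and a weaker one with 36 reads was WT-only. Inside Col4a5 a peak with 63 reads was WT-only.

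**Figure D3:**
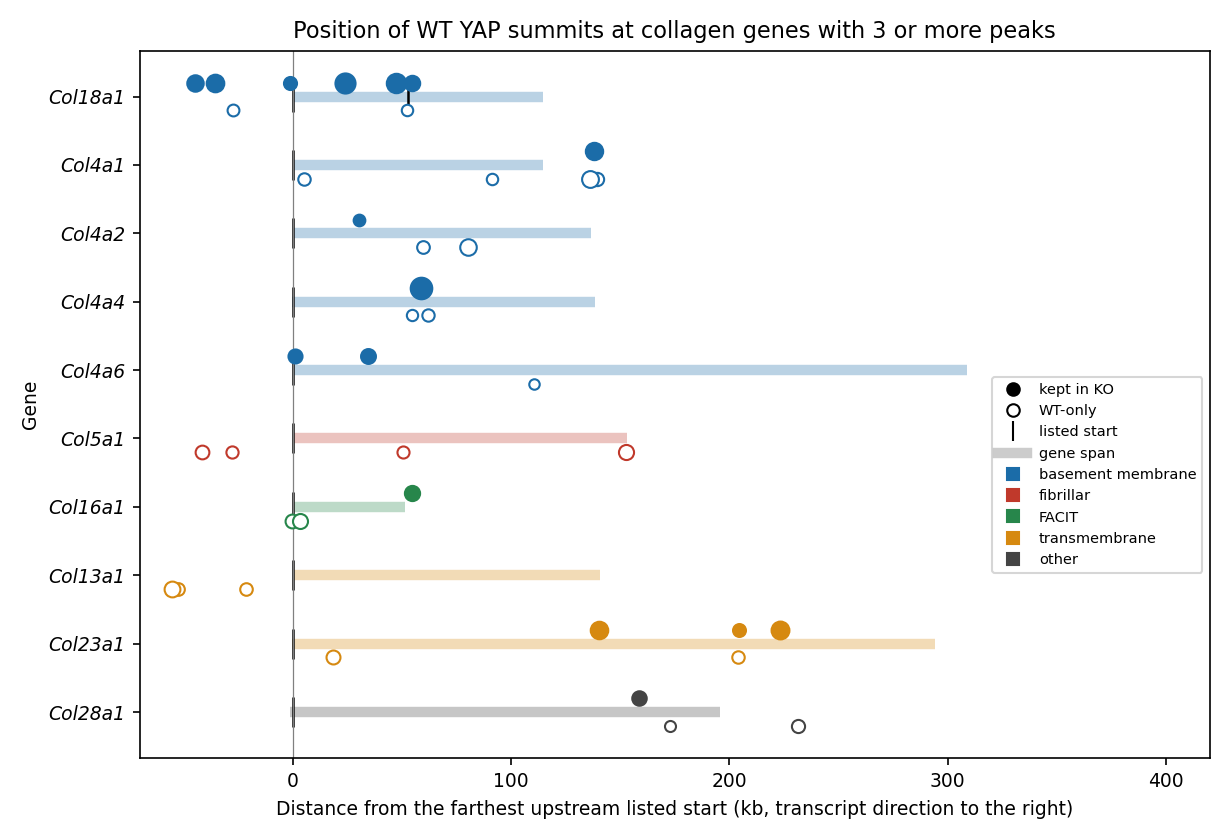
WT summits (circles, area in proportion to WT reads) along collagen genes with at least 3 linked peaks and a listed start, in kb from the farthest upstream listed start (x axis), with filled circles kept in KO and drawn above the gene and open circles WT-only and drawn below. Col18a1 has summits on both sides of its upstream start, the Col13a1 summits all lie upstream, and the strong Col4a1 summits lie past the end of the gene.

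Fibrillar collagen genes had few and weak peaks, from 40 to 75 WT reads. Col1a1, which encodes the main chain of type I collagen of dermis and bone, had 3 WT peaks. The kept one, chr11:94922329-94922832, lay 13623 bp outside the span with 54 WT and 42 KO reads (log2 -0.45, counting SE 0.37). The other Col1a1 peaks were WT-only. One with 53 reads lay inside the span, 967 bp from its edge of lower coordinate. The other, with 43 reads, lay 2213 bp outside. Col1a1 had no listed start, so these distances are not given as upstream or downstream. Its partner Col1a2 had none, and the nearest WT summit lay 418648 bp away. Col24a1, which encodes a minor fibrillar chain, had 1 peak inside its span, chr3:145373942-145374442, with 73 WT and 51 KO reads (log2 -0.62, counting SE 0.32).

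Col5a1, whose type V product controls fibril diameter, had the most fibrillar peaks, 4 in WT, and none was kept. The strongest, chr2:28038579-28039169, lay at the 3′ end of the gene, 586 bp inside the span, with 75 reads. The others had 62, 49 and 48 reads. At equal reads 0.949 of these 4 peaks would be kept. Col2a1, the cartilage fibril gene, and Col27a1 each had 1 WT-only peak, with 56 and 40 reads. Col3a1, Col5a2, Col5a3, Col11a1, Col11a2 and Col1a2 had no linked peak in either list.

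Some fibrillar genes stood in wide regions without any called YAP summit. Col3a1 and Col5a2, neighbours on chromosome 1 whose products make up dermal fibrils together with type I, had their nearest WT summit 314636 and 161060 bp away. For Col11a1, a cartilage fibril gene, it was 400338 bp. With Col1a2, 4 of 11 fibrillar genes had no WT summit within 100 kb, as did 0 of 8 basement membrane genes and 19.6% of all genes. Col22a1, a gene of muscle-tendon junctions, was the other collagen gene of this kind, at 659137 bp, and 5.78% of all genes had a farther nearest summit. Col5a3 and Col11a2 had summits 16031 and 7002 bp away, which were linked to nearer genes.

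In the other classes, the strongest peak belonged to Col6a5, which encodes a skin-expressed chain of the type VI beaded filaments. This peak, chr9:105970641-105971405, lay 8639 bp outside the span with 131 WT and 65 KO reads (log2 -1.13, counting SE 0.25). It also lay 19216 bp from Col6a4, which had no linked peak. Col6a1 and Col6a3 had WT-only peaks of 41, 44 and 53 reads, and Col6a2 and Col6a6 had none. Among the FACIT genes (collagens that attach to fibrils), Col19a1 had a wide kept peak of 1253 bp with 99 WT and 49 KO reads (log2 -1.18, counting SE 0.30). Its WT background was 20.2 reads, above the even background of 9.63 reads that was subtracted for the ratio. A second Col19a1 peak, with 39 reads, was WT-only. Col12a1 had a kept peak with 73 and 52 reads and a WT-only peak with 49 reads. Col16a1 had 3 WT peaks: the promoter peak with 63 reads and an inside peak with 74 reads were WT-only, and one 3173 bp outside the span had 76 WT and 39 KO reads (log2 -1.18, counting SE 0.36). Col9a3 and Col14a1 each had 1 WT-only peak, with 57 and 50 reads.

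Col23a1, a transmembrane collagen gene, had 5 WT peaks inside its span and 3 kept. They had 105 WT and 57 KO reads, 101 WT and 43 KO reads, and 55 and 35. The log2 ratio of the second, chr11:51430136-51430605, was -1.45 (counting SE 0.32), the lowest of the kept collagen peaks. Col13a1, also a transmembrane collagen, had 3 WT-only peaks, all upstream, the strongest with 82 reads at 55358 bp from the span. This was the farthest linked peak. The next summits nearest to a collagen gene lay beyond the limit, 119609 and 402474 bp from Col12a1, with 78 and 38 reads. Col28a1 had 3 WT peaks, of which one with 69 WT and 45 KO reads was kept. The short-chain genes Col8a1 and Col8a2 had 1 WT-only peak each, with 60 and 41 reads. Col9a1, Col9a2, Col10a1, Col20a1, Col25a1 and Col26a1 had no linked peak.

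KO reads above background were lower than WT reads at all 22 kept collagen peaks, as at 99.5% of all kept peaks. A difference in ChIP enrichment between the WT and KO pools was not tested. The background subtracted was the even 9.63 reads at every peak, also where the WT background was higher, such as at Col19a1 and Col23a1. At collagen sites KO reads ran from 35 to 93. The median log2 ratio was -0.82 (quartiles -1.17 and -0.60), against -0.88 (-1.07 and -0.69) for all 14315 kept WT peaks. The SD between collagen peaks was 0.324, and the median counting SE of a single peak was 0.32. The 10 kept peaks of at least 80 reads lay mostly at Col18a1 and Col23a1. Their median was -1.16, against -0.93 for all kept peaks of such reads. For 60 to below 80 reads the values were -0.75 over 7 peaks and -0.84, and under 60 reads -0.45 over 5 peaks and -0.48. The ratio is nearer 0 at weak peaks in both sets, where a site counts as kept only if its KO reads sufficed for a call. The median was -0.78 for the 12 basement membrane and -0.54 for the 2 fibrillar kept peaks. Since the fibrillar ones had 54 and 73 WT reads, the classes were not compared at equal reads.

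**Figure D4:**
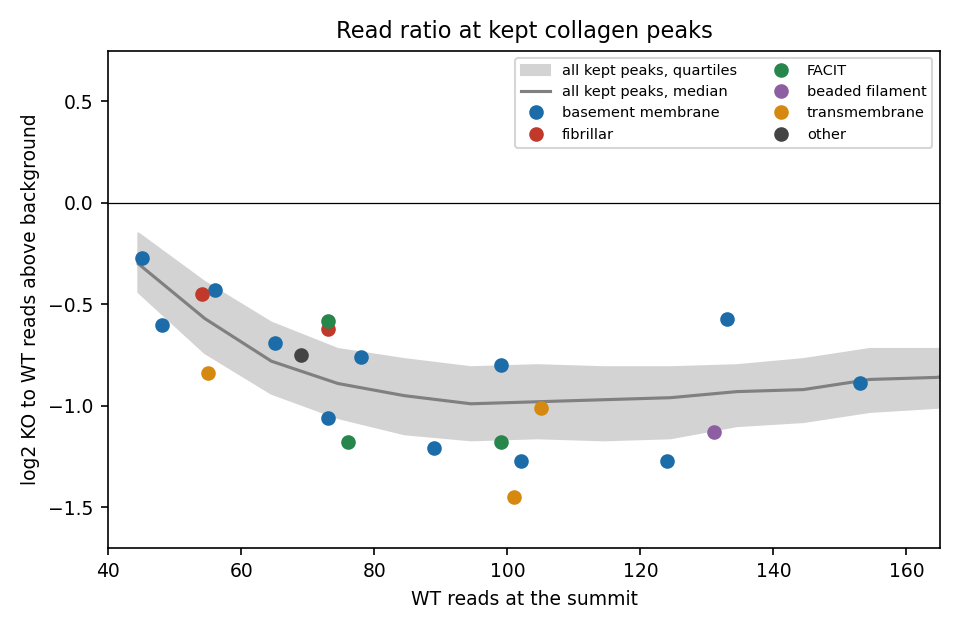
Log2 ratio of KO to WT reads above background (y axis) against WT reads (x axis) at the 22 kept collagen peaks, coloured by class, over the median and quartiles of all kept WT peaks in steps of 10 reads. All collagen points lie below 0, and the peaks of Col18a1 at 133 reads and of Col23a1 at 101 reads lie on opposite sides of the grey band.

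Collagen peaks lay within genes and away from their ends. Of the 64 WT peaks, 43 (67.2%) lay inside the span, against 53.3% of all WT peaks, and 6 (9.38%) lay within 2 kb of an end of the linked gene, against 26.8%. Deep inside, more than 10 kb from either end, lay 32 (50.0%), against 25.6% of all WT peaks. For basement membrane peaks these numbers were 20 inside, 3 near an end and 17 deep inside of 28, and for fibrillar peaks 6, 2 and 3 of 10. Long spans leave more room away from the ends, and this was not corrected for. The set of all WT peaks also holds peaks more than 100 kb from any gene. Such peaks cannot lie inside a span or near an end, and the linking rule leaves them out of the collagen peaks. Of the kept collagen peaks 15 of 22 lay inside a span and 13 deep inside, and of the WT-only peaks 28 of 42 and 19, a difference that was not tested. At 20 of the 22 kept sites the WT and KO summits lay within 60 bp of each other, and no WT peak overlapped more than 1 KO peak. The background at the summit was more than 1.5 times the even background at 6 collagen peaks, at Col16a1, Col19a1, Col4a1, Col1a1, Col5a1 and Col23a1, against 14.1% of all WT peaks.

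Genes whose products modify, process or cross-link collagen were linked to a WT peak for 19 of 31 (61.3%) and to a KO peak for 8, against 53.2% and 30.1% of all protein-coding genes. They kept 25 of 51 WT peaks (49.0%, 34.8 to 63.4), against 45.0% of all WT peaks at equal reads. P3h2 alone had 17 of the 51 peaks and 10 of the 25 kept. The strongest were linked to P3h4, with 236 WT and 158 KO reads, P3h2, with 184 and 94, and P3h1, with 152 and 90. These genes all belong to the prolyl 3-hydroxylase family. The P3h4 and P3h2 peaks lay 1358 and 1051 bp outside the span, and the P3h1 peak inside. P4ha1 and P4hb, subunits of prolyl 4-hydroxylase, had kept peaks with 141 and 97, and 143 and 110 reads. The P4ha1 peak lay 28039 bp outside the span and the P4hb peak inside. Serpinh1, the collagen chaperone gene, had 1 WT-only peak with 47 reads, and of the lysyl oxidase genes Lox and Loxl1 to Loxl4 only Loxl4 had a peak, with 87 and 43 reads. Collagen receptor and collagenase genes were linked to a WT peak for 11 of 18 (61.1%) and to a KO peak for 9, beside the same all-gene shares. They kept 24 of 47 WT peaks (51.1%, 36.1 to 65.9), against 50.3% at equal reads. Ddr1 alone had 14 of the 47 peaks and 10 of the 24 kept. The strongest peaks of this list were linked to Mmp2 (166 WT and 94 KO reads), Ddr1 (139 and 86) and Itga11 (136 and 80). The Mmp2 peak lay 46074 bp and the Ddr1 peak 12516 bp outside the span, and the Itga11 peak inside. Mmp8, Mmp9 and Mmp13 had no linked peak. P3h4, P3h2 and Mmp2 had linked peaks, all outside their spans, with more reads than the strongest collagen peak, the one inside Col4a4 with 153.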

How the data were processed

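YAP ChIP was labelled for Bmal1 WT and Bmal1 KO, with 1 deposited peak list each, and the 2 input samples were not analysed here. The authors' processing, per the submitters' processing notes, names Trimmomatic 0.36, SAMtools 1.5 and MACS2 2.1.1 and build mm10; the aligner, control and filters were details not given in the sources used here. Per the peak names, peaks were called on pools. The deposited score is 10 times the −log10 q, and the deposited fold is a ratio of summit signal over background; −log10 p, −log10 q and the summit offset are also the authors' values. Labels give 25 to 50 M reads per sample. The whole number of reads under a summit follows from its fold and −log10 p, given a scaling found per list, 0.694 for WT and 0.842 for KO, with a match within 0.002 for 100% of peaks. On simulated lists 100% (WT) and 99.99% (KO) of reads were returned, which tests only the solving. Gene spans came from RefSeq GRCm38.p6. Tools were Python 3.11.15, scipy 1.17.1 and pandas 2.3.3.

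Every member is accounted for; named in full are fibrillar and basement membrane genes with a peak, other genes with 3 or more peaks or one of the 10 strongest peaks, WT-only peaks of at least 80 reads and the 3 strongest genes of each partner list, with further genes named after their values were seen. The members and lists were chosen with earlier results of these data known. The alternatives were another overlap, q limit, list length, linking distance, class definition, background and pairing rule. Of 32 listed processing symbols, 31 matched. No test across samples was possible with 1 list per genotype.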

Additional observations from a re-analysis of the deposited data

How the results depend on the processing

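Of 51 values recomputed under the alternatives, 39 stayed within the interval or range of the reported value and 12 moved. Some of the 39 could not move. The number of WT peaks does not depend on the overlap rule. No collagen WT peak overlapped more than 1 KO peak, so the pairing rule could change nothing. The interval of the fibrillar kept share, 2.52 to 55.6, was also too wide for most changes to leave it. With a −log10 q of at least 10 in both lists, the collagen genes had 42 WT peaks, basement membrane genes kept 22.2%, and 9 collagen and 3 basement membrane genes had a KO peak. When only as many top-scoring WT peaks were used as KO had, 24 WT peaks were left, of which 70.8% were kept, and 75% at basement membrane genes; the background was then 77.8%, since the reduced list holds only higher-scoring peaks. The fibrillar genes with a KO peak were 1 at a linking distance of 10 kb, 1 for summits inside the span and 1 at the higher q limit. The median log2 ratio was -1.16 from 80 reads, and 20.3% of WT peaks lay within 5 kb of a gene end. Apart from the fewer peaks or wider distance that these settings give by construction, the cause was not tested. A ratio counted as moved beyond 1 SD between peaks. Peaks too weak to be called are not in the lists, so a WT-only site may still hold KO reads. No paired analysis was possible because there was a single pooled list for WT and one for KO.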
